A study of Mus musculus with 2 samples.

Results

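The largest neuronal cluster of the brainstem atlas, neuron.1, breaks up at clustering resolution 0.8 into 6 large subclusters (0, 1, 3, 5, 9 and 10) and a remainder, which is described here. The remainder was taken by its deposited labels alone, as the nuclei named neuron.1 whose subcluster value is none of those 6. It held 232 of the 9111 neuron.1 nuclei (2.55%), out of 18281 nuclei in all, with 130 from the WT library and 102 from the HET library. These nuclei carried 11 different subcluster values, and only 1 value, subcluster 24, reached 50 nuclei. Subcluster 24 had 119 nuclei, all of them neuron.1, and the other 10 values shared 113 nuclei, each value being borne mainly by nuclei of another cluster.

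The study profiled brainstem nuclei of 1 wild-type (WT) mouse and 1 heterozygous (HET) Scn1a A1783V/WT littermate, a model of Dravet Syndrome that carries a missense change in the gene of the sodium channel Nav1.1. Both mice were untreated females on a C57Bl6 background at postnatal day 41, bred from a Scn1a floxed-stop male and a Sox2-Cre female, so that the allele is active in the whole body and not in 1 cell type. The tissue was flash-frozen, and each RNA molecule captured by the 10x Chromium 3′ v3.1 chemistry was counted once by its unique molecular identifier (UMI). There was 1 library per genotype, so no test between genotypes is possible, and a difference between genotypes cannot be told apart from a difference between 2 mice, dissections or libraries.

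Brainstem inhibitory neurons release GABA, glycine or both. GABA is made by the enzymes encoded by Gad1 and Gad2, glycine is gathered by the transporter Slc6a5, and a single transporter, Slc32a1, loads both into synaptic vesicles. Glutamatergic neurons of the hindbrain use Slc17a6 instead. Inhibitory neurons shape breathing rhythm, reflexes and sensory relay in the medulla and pons.

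**Figure D1:**
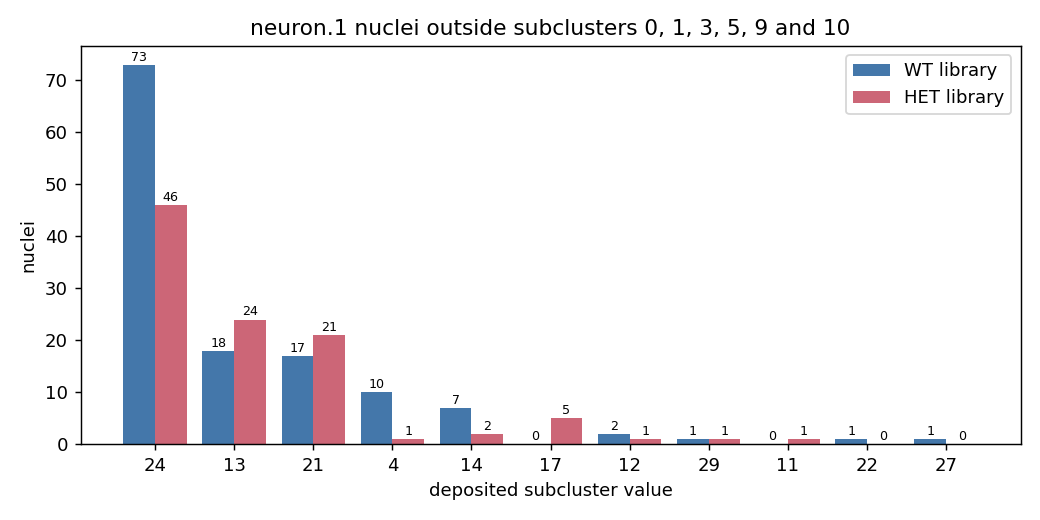
Nuclei of neuron.1 outside subclusters 0, 1, 3, 5, 9 and 10, by deposited subcluster value (x axis) and library (blue WT, red HET), as counts (y axis, bars start at 0). Subcluster 24 holds 73 WT and 46 HET nuclei, and no other value passes 24 nuclei in either library.

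Of 9259 nuclei in the WT library, 0.788% (95% Clopper-Pearson interval 0.618 to 0.990) belonged to subcluster 24, and of 9022 in the HET library 0.510% (0.374 to 0.680) did. The log2 ratio of these shares, HET over WT, was −0.63 (−1.19 to −0.08). As a share of neuron.1 alone it was 1.45% in WT and 1.13% in HET, with a log2 ratio of −0.36 (−0.93 to 0.19), an interval that holds 0. Its nuclei held 786027 UMIs in WT and 498777 UMIs in HET, with medians of 8777 and 10312.5 UMIs per nucleus, which limits what can be read from genes of low level. All intervals given here cover counting error only. The libraries shared 23 cell barcodes in all, of which 0 belonged to subcluster 24.

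The 119 nuclei were labelled neurons by the second deposited label without exception, and the 5 general neuron markers (Rbfox3, Snap25, Syt1, Meg3, Snhg11) summed to 17207 counts per 1000000 UMIs (CPM), against 19284 CPM in the other neuron.1 nuclei and 2120 CPM in non-neuronal nuclei. They stayed in a single cluster at every deposited resolution, from 0.1 to 1.5, of the clustering on normalised values. At resolutions 0.2 to 0.7 they formed 1 cluster with 657 to 746 of the 747 nuclei of subcluster 9, and from 0.8 to 1.5 they stood nearly alone. A clustering on values that were not normalised that way spread them over 6 clusters, the largest taking 72. Subcluster 9 was also the nearest by expression: Pearson r of log2(CPM + 10) was 0.953 over 8374 genes, against 0.933 for subclusters 10 and 3. These correlations run across genes, which are not independent, and serve as a description.

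With both libraries summed, the 10 genes with the largest ratio over the other neuron.1 nuclei were each higher in subcluster 24 than in any of the 6 large subclusters. They were taken from genes with at least 50 UMIs in the subcluster and a UMI in at least 20% of its nuclei. Of the 4585 genes that met these minimums, 35 (0.763%) were 4-fold or more higher. The deposited clusters were built from these same genes, so the folds describe the subcluster and carry no test. The median nucleus of subcluster 24 held UMIs of 6 of the 10 leading genes, and 113 of the 119 (95%) held 3 or more. That was true of 3.68% of the other neuron.1 nuclei, 17.7% of subcluster 9 and 2.77% of non-neuronal nuclei, whose median depth of 2835 UMIs was lower than the 9019 UMIs of subcluster 24.

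Of the leading genes, 6 encode proteins of the cell surface or the secretory path. Cdh3, the adhesion protein P-cadherin (chromosome 8, 106510891 to 106557297, plus strand, mm10), stood at 128 CPM (95% Poisson interval 105 to 156) in the WT and 92.2 CPM (67.5 to 123) in the HET nuclei. Over both libraries it was 73.2-fold (57.6 to 93.1) higher than in the other neuron.1 nuclei, and 63.0% of nuclei held a UMI against 1.26%. Ndnf, a secreted factor that acts on neurons, stood at 178 CPM (WT) and 204 CPM (HET), 15.5-fold higher. Colec12, a scavenger receptor gene, was 16.4-fold higher, Kit, a receptor tyrosine kinase gene, 10.6-fold, and Notch2, a receptor of the Notch pathway, 9.70-fold. Fam20a, whose product works in the secretory pathway, was 12.4-fold higher. Both libraries placed each of these genes above the other neuron.1 nuclei of the same library.

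The remaining 4 leading genes act inside the cell. Maf, a transcription factor gene (chromosome 8, 115682942 to 115707794, minus strand), stood at 815 CPM (754 to 881) in the WT and 369 CPM (317 to 426) in the HET nuclei, 14.9-fold (13.8 to 16.1) above the other neuron.1 nuclei. A UMI of Maf was found in 101 of the 119 nuclei (84.9%), against 17% elsewhere in neuron.1. Prkcq, the gene of protein kinase C theta, was 18.6-fold higher, and Rab38, which encodes a small GTPase of vesicle traffic, 12.2-fold. Rab38 was shared with subcluster 9, at 35.6 CPM against 47.5 CPM in subcluster 24, and in WT alone at 36.6 against 36.9 CPM. The other large subclusters stood at 0.913 to 2.51 CPM for Rab38. Otof, the gene of otoferlin, a calcium sensor for vesicle release known from inner hair cells, was 10.0-fold higher. Maf overlaps Gm15655 on the opposite strand and the use of strand in the counting is not given in the sources used here, so reads of such pairs may be mixed. Within each library the folds of the 10 genes ran from 8.15 (Notch2) to 62.9 in WT and from 4.86 (Otof) to 92.6 in HET (both Cdh3), and 4 of the 10 reached 50 UMIs in the HET nuclei alone.

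**Figure D2:**
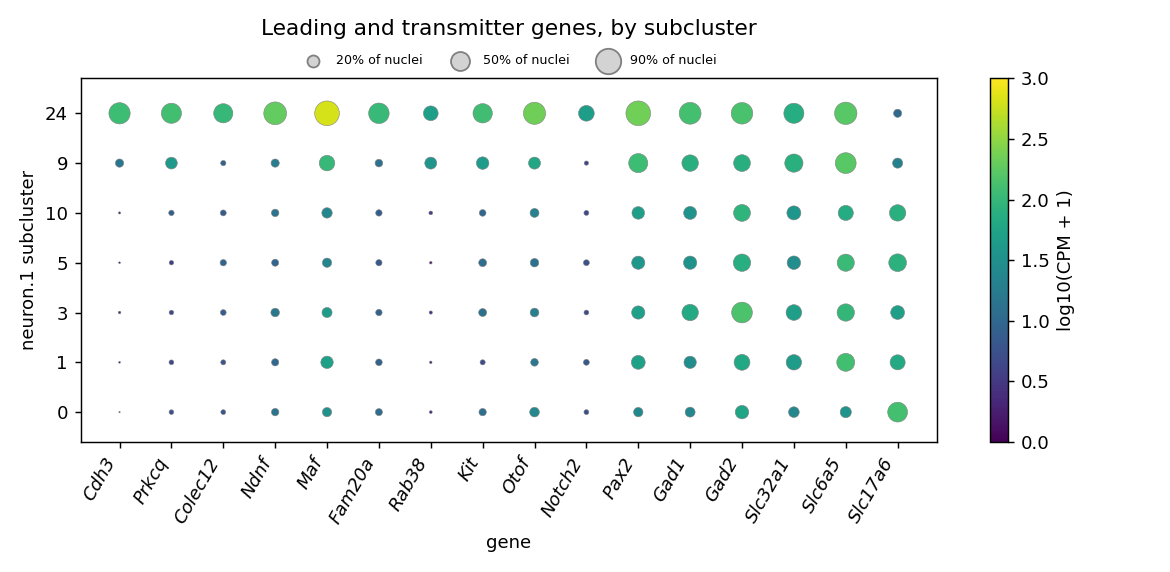
Leading genes, Pax2 and transmitter genes (x axis) in the 7 neuron.1 subclusters of at least 50 nuclei (y axis), both libraries summed, with the level as colour (log10 of CPM + 1) and the share of nuclei with a UMI as dot area. The 10 leading genes are brightest in the top row, subcluster 24, while Slc17a6 is smallest there, at 9.34 CPM.

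**Figure D3:**
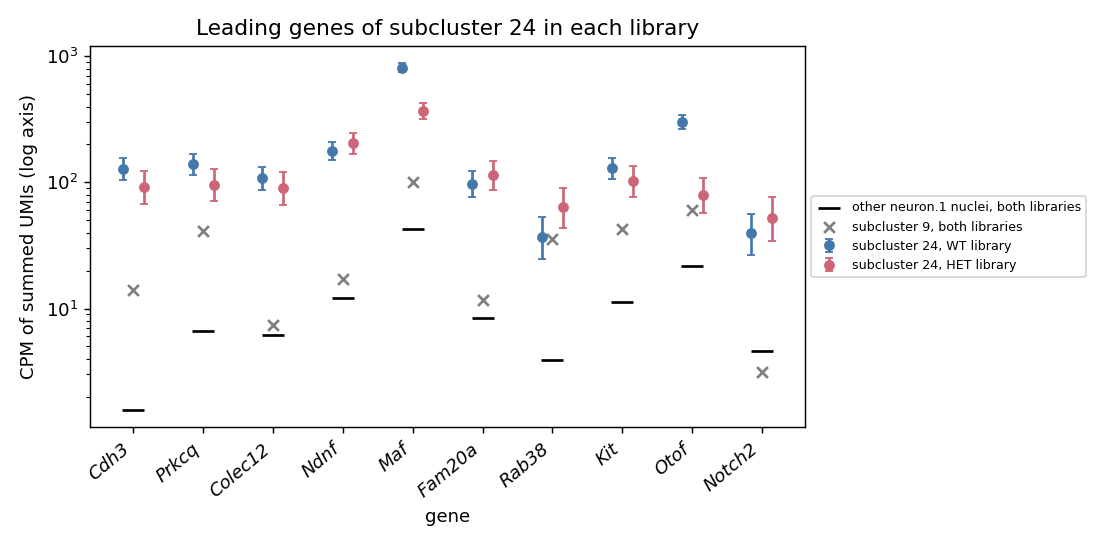
CPM of summed UMIs (y axis, log scale) of the 10 leading genes (x axis) in the WT (blue) and HET (red) nuclei of subcluster 24, with 95% Poisson intervals, beside the other neuron.1 nuclei (black line) and subcluster 9 (grey cross). Both libraries lie above the other neuron.1 nuclei for every gene, and the intervals of the libraries are apart for Maf and Otof.

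None of the 10 leading genes was at its highest in subcluster 24 among all 34 subclusters of the atlas. For 7 of them the highest level was in a non-neuronal cluster. Those were epend.2 for Cdh3 (169 CPM), Prkcq (428 CPM), Rab38 (76.1 CPM) and Notch2 (385 CPM), fibro for Colec12 (798 CPM), endo for Ndnf (238 CPM) and astro for Fam20a (253 CPM). The other 3 were highest in neuronal clusters, Maf (810 CPM) and Otof (220 CPM) in neuron.2 and Kit (166 CPM) in neuron.6. The 15 genes that follow in the ranking were looked at after the first 10 had been seen, and 7 of them were higher in subcluster 24 than in any other subcluster.

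Those 7 included 2 transcription factor genes, Sall3 and Pax2. Pax2, a gene of inhibitory neuron development in the dorsal hindbrain and spinal cord, stood at 242 CPM in WT and 186 CPM in HET, 4.91-fold above the other neuron.1 nuclei, with a UMI in 84.9% of nuclei against 22.9%. Sall3 was 8.27-fold higher. Grik1, a kainate receptor subunit gene, was 5.21-fold higher at 1533 CPM, Nppc, the precursor of C-type natriuretic peptide, 5.54-fold, and Mcc 6.80-fold with a UMI in 98.3% of nuclei. C230057M02Rik and A930012L18Rik, which lies within Mcc on the opposite strand, complete the 7. Another 2 genes were detected in nearly all nuclei: Adarb2, an RNA-editing family gene, was detected in 100% of the 119 nuclei and Nfib, a transcription factor gene, in 98.3%.

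Transmitter genes placed subcluster 24 on the inhibitory side. Gad1 stood at 135 CPM in WT and 110 CPM in HET, against 37.6 CPM in the other neuron.1 nuclei and 77.3 CPM in subcluster 9. Gad2 stood at 167 and 90.2 CPM, against 78.9 CPM in the other neuron.1 nuclei. The vesicular transporter gene Slc32a1 stood at 76.3 and 62.2 CPM, against 38.9 CPM. Both libraries were above the other neuron.1 nuclei for each of these 3 genes. For Gad2 in HET the interval (65.8 to 121 CPM) holds the 78.9 CPM of the other neuron.1 nuclei.

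Glycinergic genes were present in the same nuclei. Slc6a5 stood at 187 CPM in WT and 126 CPM in HET, against 90.9 CPM in the other neuron.1 nuclei and 167 CPM in subcluster 9. Glra1, the glycine receptor alpha 1 subunit, stood at 218 and 166 CPM, against 213 CPM, which is no contrast. Other subclusters reached the same levels for some of these genes. Subcluster 9 was close to subcluster 24 for Slc6a5 and stood at 80.0 CPM for Slc32a1, against 70.8 CPM over both libraries here. Subcluster 3 stood at 139 CPM for Gad2, against 137 CPM here. Gad1 was the exception, at 125 CPM here and at most 77.3 CPM in the 6 large subclusters.

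A UMI of Gad1 was found in 66.4% (57.2 to 74.8) of the 119 nuclei, against 23.5% of the other neuron.1 nuclei and 2.74% of non-neuronal nuclei, which should lack it. Slc6a5 was detected in 69.7% (60.7 to 77.8), against 35.6% and 5.72%. With each nucleus thinned to 1000 UMIs the Gad1 share was 11.7% against 4.1% and 0.997%, and the Slc6a5 share 14.9% against 7.41% and 2.04%, so the order held at equal depth. Subcluster 9 had 38.0% for Gad1 and 60.2% for Slc6a5, and 7.68% and 13.6% when thinned. Its thinned shares lay within the intervals of subcluster 24 (6.55 to 18.9% and 9.04 to 22.6%).

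Many nuclei held both systems. A UMI of Gad1 or Gad2 together with one of Slc6a5 was found in 73 of the 119 nuclei (61.3%, 52.0 to 70.1), in 49 of 73 WT nuclei (67.1%) and in 24 of 46 HET nuclei (52.2%). Gad alone was found in 29, Slc6a5 alone in 10 and neither in 7. The same pairing occurred in 23.7% of the other neuron.1 nuclei, between 11.0% (subcluster 0) and 36.5% (subcluster 9) over the 6 large subclusters, and in 0.523% of non-neuronal nuclei. These unthinned shares depend on depth as well as on expression. On these markers subcluster 24 is called GABAergic- and glycinergic-like.

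Glutamatergic and cholinergic genes were near or below background. Slc17a6 stood at 9.34 CPM (4.83 to 16.3) and was found in 11 nuclei (9.24%), against 77.9 CPM in the other neuron.1 nuclei, 19.3 CPM in subcluster 9 and 41.9 CPM with 12.7% of nuclei in the non-neuronal set, so its share is read as background. Slc17a7 gave 4 UMIs and Slc17a8 1 UMI. The acetylcholine genes Chat and Slc5a7 gave 3 and 8 UMIs, and Slc18a3 gave none in 119 nuclei, which allows a share of nuclei with a UMI of up to 2.52% (3 nuclei of 119) and sets no limit on nuclei that express it. Ache, at 30.4 CPM, was close to the 38.2 CPM of the other neuron.1 nuclei.

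Genes low in subcluster 24 were picked after their values were seen. Zfhx3, a transcription factor gene, stood at 18.7 CPM against 467 CPM in the other neuron.1 nuclei, Nell1 at 18.7 against 298 CPM, and the axon guidance gene Sema3a at 3.11 (4 UMIs) against 76.0 CPM. Subcluster 9 was also low for these genes, at 71.3, 55.8 and 9.02 CPM, the lowest of the 6 large subclusters. Over the 4602 genes whose mean level in the 2 sets corresponded to 50 UMIs, 130 (2.82%) were 2-fold or more higher and 170 (3.69%) 2-fold or more lower, and the median log2 ratio was 0.00.

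Lists of regional genes described where along the hindbrain axis such transcripts sit. The Hox genes, which mark segments of the hindbrain from rostral to caudal, summed to 293 CPM (264 to 324), against 122 CPM in the other neuron.1 nuclei and 91.6 to 289 CPM in the 6 large subclusters. Of 13 Hox genes 12 were higher. Only Hoxb3 (63.0 against 27.0 CPM) had the level at which 2.82% of all genes were 2-fold higher, so the other Hox genes have no such background. Hoxb6 stood at 35.8 against 9.58 CPM and Hoxb5 at 31.1 against 9.17 CPM. Subcluster 9, at 289 CPM, was nearly as high. The list of midbrain and rostral hindbrain genes, among them Gata2, Gata3 and Otx2, summed to 2.33 CPM (0.482 to 6.82) with 6 of its 9 genes at 0, against 20.2 CPM in the other neuron.1 nuclei. Subcluster 9 was about as low for this list, at 3.80 CPM.

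Receptor genes differed in both directions. Of 26 tested receptor genes 3 were 2-fold or more higher and 3 lower, against 2.82% and 3.69% of all genes. The higher genes were Grik1, Grm3 (683 against 209 CPM) and Grm5 (2863 against 1134 CPM), all of them glutamate receptor genes. Subcluster 9 stood at 431, 390 and 2445 CPM for these genes, so that Grm5 was nearly as high there. Among the lower genes were the GABA-A receptor subunit genes Gabrb1 (197 against 525 CPM) and Gabrb2 (20.2 against 190 CPM). Pvalb, the calcium buffer parvalbumin, stood at 51.4 against 18.3 CPM. The neuropeptide precursors summed to 121 CPM against 192 CPM, and 21 of the 23 were lower, many of them at a few UMIs. Only Sst (40.5 against 40.1 CPM) had the level at which 3.69% of all genes were 2-fold lower. The other precursors have no such background, and the share of all genes lower at any size was not counted.

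Markers of other cell types did not stand out. The oligodendrocyte list summed to 571 CPM, against 584 CPM in the other neuron.1 nuclei and 9681 CPM in non-neuronal nuclei, and the astrocyte list to 56.0 CPM, against 93.1 and 1751 CPM. The endothelial list summed to 24.2 CPM in WT and 4.01 CPM in HET. No gene of a cell type marker list other than the transmitter lists was both 4-fold higher and found in 20% of nuclei. Of the 6 noradrenergic genes 5 were at 0.

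The 119 nuclei were not alike in every gene, and the genes given here were chosen after their values were seen. Spread beyond counting error was measured by a dispersion (excess variance over the squared mean, with depth allowed for), whose median over 2341 genes was 0.123. The leading genes had a median of 0.510, and 0 of the 10 were among the 20 most uneven genes. Il1rapl2, a synaptic adhesion gene, gave 909 UMIs, of which 12 nuclei held 75.1%, while 78 nuclei held none. Of the 22 nuclei with at least 10 of its UMIs, 11 were WT and 11 HET. Cdh18, a cadherin gene, reached 10 UMIs in 33 nuclei, 17 WT and 16 HET, and Zfp804b in 23. The first pair of genes shared 18 nuclei at that level, which is 81.8% of the Il1rapl2 and 54.5% of the Cdh18 nuclei, and Il1rapl2 and Zfp804b shared 15, or 68.2% and 65.2%. A minority of nuclei in both libraries thus carried these genes together, and these counts also follow depth.

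Between genotypes the nuclei of subcluster 24 were compared gene by gene on summed UMIs. Of the 2341 genes with at least 100 UMIs, 25 (1.07%) were 2-fold or more higher in HET and 29 (1.24%) 2-fold or more lower, and the median log2 ratio was 0.02. Over the 8387 genes with at least 20 UMIs, 53.7% were lower in HET. All 25 higher genes were also above 0 in the other neuron.1 nuclei and 22 of the 29 lower genes below 0, and 2 and 8 of them reached 2-fold there. The tested genes had a median log2 ratio of 0.04 there. Their shares above 0, below 0 or past 2-fold there were not counted, so these numbers have no background beside them. Of the 25 higher genes 12 were noncoding, against 2 of the 29 lower genes and 145 of 2323 tested genes with a position. The medians of the deposited doublet score (0.169 in WT, 0.0941 in HET), of the mitochondrial percent (0.211 and 0.291) and of the ribosomal percent (0.511 and 0.317) differed between the libraries in these nuclei, and their part in the ratios was not tested.

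**Figure D4:**
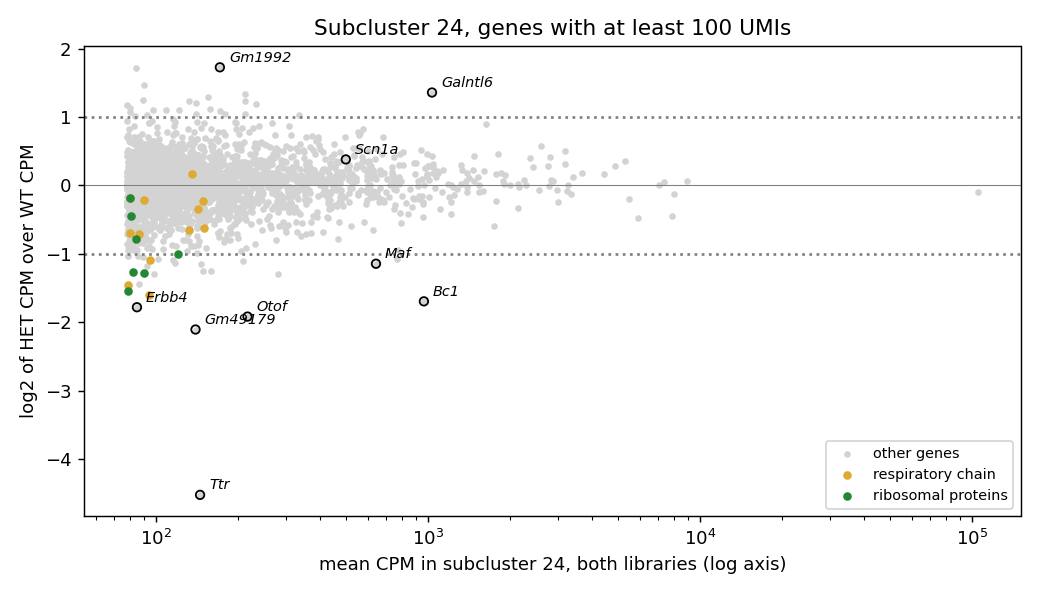
Log2 ratio of HET over WT CPM (y axis) against mean CPM (x axis, log scale) for the 2341 genes of subcluster 24 with at least 100 UMIs, with ribosomal protein genes in green, respiratory chain genes in orange and dotted lines at 2-fold. Most genes lie between the lines, Ttr is lowest at −4.52 and Gm1992 highest at 1.73.

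Scn1a itself stood at 445 CPM (400 to 494) in the WT and 579 CPM (515 to 650) in the HET nuclei, with a UMI in 70 of 73 and 46 of 46 nuclei. The log2 ratio was 0.38 (0.15 to 0.61), against 0.16 in the other neuron.1 nuclei. The counts do not tell the A1783V allele from the normal one, so Scn1a checks no label here.

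Ttr, the transthyretin gene of the choroid plexus, had the lowest ratio of HET over WT. It gave 181 UMIs in WT and 5 in HET, 230 against 10.0 CPM, a log2 ratio of −4.52 (−6.16 to −3.27). The other neuron.1 nuclei had −3.01, and the 6 large subclusters ran from −3.45 to −2.74, so the difference was found throughout neuron.1. The choroid plexus list, which includes Ttr, summed to 191 UMIs (243 CPM) in WT and 13 UMIs (26.1 CPM) in HET. Ttr gave 181 and 5 of these, so the lower sum in HET is that of Ttr and not a further result. The defining members Folr1 and Clic6 were at 0. The part of choroid plexus RNA in this result was not tested.

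Gm49179, an antisense transcript opposite Dzip1, had a log2 ratio of −2.11 (−2.81 to −1.47), against −1.41 in the other neuron.1 nuclei and −1.79 to −1.14 in the 6 large subclusters. At the other end, Gm1992, antisense to Xkr4, had 90.3 CPM in WT against 299 CPM in HET nuclei, or 1.73 on the log2 scale (1.31 to 2.15). It was found in 39 WT and 42 HET nuclei, and the 6 large subclusters gave ratios of 0.63 to 0.85. The noncoding transcripts D030068K23Rik and Gm15680, which lies within Cdh8, had ratios of 1.72 (1.12 to 2.34) and 1.47 (0.91 to 2.06), against 0.46 and 0.78 in the other neuron.1 nuclei. These genes were taken for the size of their ratio in subcluster 24, so that a smaller ratio elsewhere is built into the choice.

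Otof and Maf were the members of the first 25 genes of the ranking that passed 2-fold between genotypes. Otof stood at 303 CPM (265 to 344) in the WT and 80.2 CPM (57.3 to 109) in the HET nuclei, a log2 ratio of −1.92 (−2.44 to −1.43), with a UMI in 56 WT and 25 HET nuclei. Across the 6 large subclusters its ratio ran from −1.54 in subcluster 1 to 0.74 in subcluster 5. Maf had a ratio of −1.14 (−1.39 to −0.91), with a median of 7 UMIs per nucleus in WT and 2 in HET, against −0.03 in subcluster 9 and −1.42 in subcluster 3. Maf was named here after its value was seen.

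**Figure D5:**
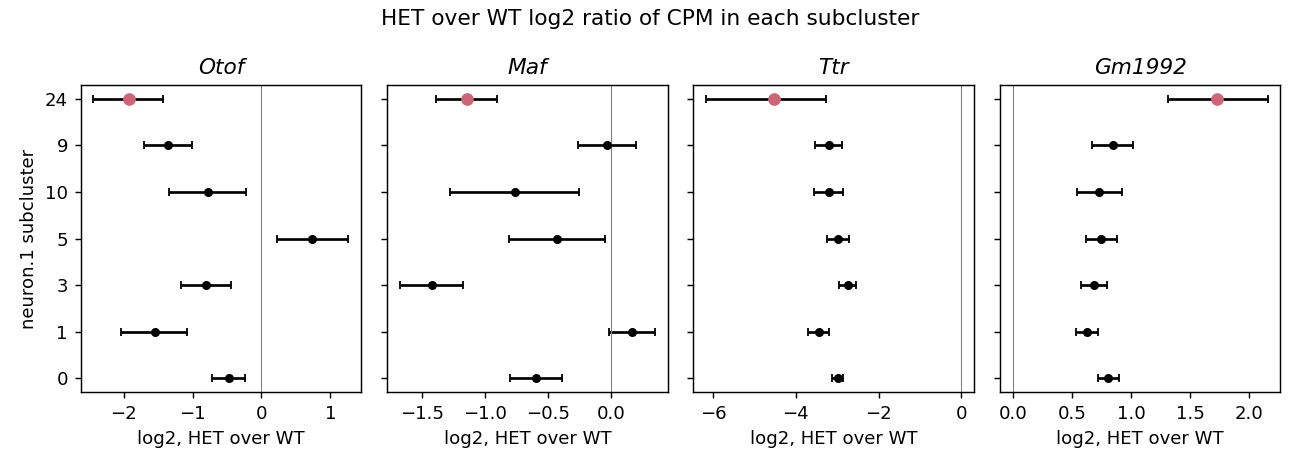
Log2 ratio of HET over WT CPM (x axis, 1 scale per gene) of Otof, Maf, Ttr and Gm1992 in each neuron.1 subcluster (y axis), with 95% counting intervals and subcluster 24 in red. Ttr is below 0 and Gm1992 above 0 in all 7 subclusters, while Otof is above 0 only in subcluster 5 and Maf only in subcluster 1.

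A further 3 genes were chosen after their values were seen. Galntl6, a glycosyltransferase family gene, had 642 CPM in WT against 1646 CPM in HET nuclei, or 1.36 on the log2 scale, against 0.10 in the other neuron.1 nuclei, and 12 nuclei held 62.7% of its UMIs. The neuregulin receptor gene Erbb4 stood at 117 and 34.1 CPM, a ratio of −1.78 (−2.62 to −1.02), against 0.36 elsewhere in neuron.1. A single WT nucleus gave 33 of its 109 UMIs, and without it the ratio was −1.17. The noncoding RNA gene Bc1, which is carried into dendrites, stood at 1317 and 407 CPM, a ratio of −1.69 (−1.92 to −1.48), against −2.12 in the other neuron.1 nuclei. Leaving out, for each gene, the nucleus with most of its UMIs kept 17 of the 25 higher and 21 of the 29 lower genes past 2-fold and turned no sign.

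By list, ribosomal protein genes were lower in HET in 73 of 76 cases with a median log2 ratio of −0.83, which equals the −0.83 of the other neuron.1 nuclei. Respiratory chain genes were lower in 61 of 69, with a median of −0.70 against −0.64. These shares compare with the 53.7% of all genes that were lower. The 3 GABAergic genes were all lower, with a median of −0.30 against −0.02, and the 3 glycinergic genes too, with −0.39 against −0.60. Slc32a1 is in both lists, so they are not separate results. In subcluster 24 the GABAergic median is the ratio of Slc32a1, and the glycinergic median that of the receptor gene Glra1. Of 22 excitability genes 11 were higher and 11 lower, with a median of −0.01, and of 28 receptor genes 18 were higher and 10 lower, with a median of 0.12 against 0.21. The Hox genes were lower in 4 of 6, with a median of −0.75 against −1.09, and their sum had a ratio of −0.30 (−0.62 to 0.02).

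The 113 nuclei outside subcluster 24 were too few in each value for a comparison of genotypes. As a share of all nuclei they made up 0.616% in WT and 0.621% in HET, a log2 ratio of 0.01. Their values belong to clusters outside neuron.1. Subcluster 13 had 42 of them (18 WT, 24 HET) beside 349 nuclei of neuron.3, subcluster 21 had 38 (17 and 21) beside 88 nuclei of other clusters, subcluster 4 had 11 (10 and 1) beside 1062 of astro, subcluster 14 had 9 (7 and 2) beside 368 of neuron.2, subcluster 17 had 5, all HET, beside 258 of endo, and 5 further values held 8 nuclei. Of the 113 nuclei, 14 (12.4%) held 3 or more of the 10 leading genes of subcluster 24, against 95% of subcluster 24 and 3.68% of all neuron.1 nuclei outside it.

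The 42 nuclei of subcluster 13 resembled the neuron.3 nuclei of the same value. Pearson r was 0.947 to those nuclei and 0.906 to 0.931 to the 6 large subclusters of neuron.1. Zfpm2, a gene of a GATA cofactor, stood at 1270 CPM, against 250 CPM in the other neuron.1 nuclei and 997 CPM in the neuron.3 nuclei. Slc7a2, an amino acid transporter gene, was 9.10-fold higher. The GABAergic list summed to 235 CPM, against 155 CPM in the 6 large subclusters and 178 CPM in the neuron.3 nuclei. The glycinergic list summed to 448 CPM, against 342 and 566 CPM.

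The 38 nuclei of subcluster 21 were shallow, with a median of 2028 UMIs, and stay unnamed. Ribosomal protein genes summed to 22312 CPM, against 3577 CPM in the 6 large subclusters. The oligodendrocyte list reached 4297 against 579 CPM, the astrocyte list 827 against 91.4 CPM and the choroid plexus list 1188 against 144 CPM, while the neuron list stood at 12795 against 19297 CPM. Markers of several classes were thus present together, and 37 of the 38 nuclei carried the neuron label. The median mitochondrial percent was 2.32.

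Glial or vascular genes stood beside neuronal ones in subclusters 4 and 17. In the 11 nuclei of subcluster 4 the astrocyte list summed to 1252 CPM, against 91.4 CPM in the 6 large subclusters and 6608 CPM in the astro nuclei, and the neuron list to 17354 CPM. The astrocyte glutamate transporter gene Slc1a2 was 14.3-fold higher than in the other neuron.1 nuclei. The median doublet score was 0.287, against 0.126 in the astro nuclei of that value. In the 5 nuclei of subcluster 17 the endothelial list summed to 1661 CPM, against 17.2 and, in the endo nuclei, 10908 CPM, and the neuron list to 18824 CPM. Their median doublet score was 0.205, against 0.269 in the endo nuclei. The endothelial genes Slco1a4 and Flt1 were 535-fold and 343-fold higher. Whether such nuclei are pairs of cells was not tested. In the 9 nuclei of subcluster 14, Maf was 10.5-fold and Ebf1, a transcription factor gene, 7.71-fold higher. The neuron.2 nuclei of that value were high for both, at 810 and 3106 CPM. Rorb was 8.48-fold higher, at 497 CPM, but stood at 69.4 CPM in those neuron.2 nuclei. Pearson r to them was 0.868 over 492 genes, against 0.822 to 0.847 to the 6 large subclusters.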

How the data were processed

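The authors aligned the reads to mm10 with Cell Ranger (version not given in the sources used here), removed mitochondrial and hemoglobin genes, and clustered the nuclei with Seurat 4.1, as the submitters' processing notes name the tools and build. The deposited matrix holds UMI counts per gene and nucleus. The deposited annotation gives cluster names, subcluster values, percent of mitochondrial and ribosomal UMIs, and a doublet score per nucleus, whose caller is not given in the sources used here. No nucleus was removed here, and the doublet score served an alternative only. A further 9 deposited annotation columns were not used.

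UMIs were summed over the nuclei of each subcluster and library and divided by their total to give counts per 1000000 UMIs (CPM). With 1 library per genotype no test was made. Levels carry exact Poisson intervals, ratios exact intervals of 2 counts and shares Clopper-Pearson intervals (a share of 0 the limit of 3 counts), all at 95% and for counting error only. Named genes were the 10 with the largest ratio over the other neuron.1 nuclei (at least 50 UMIs and 20% of nuclei), all transmitter genes, members of other marker lists at 4-fold and 20% of nuclei, and, between genotypes, Scn1a and the 3 highest and 3 lowest ratios among genes with at least 100 UMIs. List genes between genotypes had at least 20 UMIs. Likeness was Pearson r of log2(CPM + 10). The members, the 37 marker lists and the 6 further lists were chosen with earlier results of these data known. Values of a few further genes are not reported here. Gene positions came from the GENCODE annotation of GRCm38 (mm10). Thinned shares are expected shares after drawing 1000 UMIs per nucleus. The steps were tested on simulated data and run in Python 3.11.15 with numpy 2.4.6, scipy 1.17.1, pandas 2.3.3 and matplotlib 3.10.9. Alternatives were nuclei with at least 2000 UMIs, no nuclei among the 5% highest doublet scores, other scalings and minimums, each library alone, and thinning. Leaving out the nucleus with the most UMIs of a gene was chosen after seeing the data.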

Additional observations from a re-analysis of the deposited data

How the results depend on the processing

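Of 112 alternative values of the counts, shares and list medians, 97 stayed within the spread set for them, 15 moved and 0 reversed. Of 90 alternative values of single genes, 79 stayed and 11 moved. With the HET library alone, 19 genes in place of 35 were 4-fold or more above the other neuron.1 nuclei, and 4 of the 10 leading genes stayed among the first 10. Of the 8387 genes with at least 20 UMIs, 280 were 2-fold or more higher in HET and 523 lower, in place of 25 (1.07%) and 29 (1.24%) of 2341 genes. The larger set includes genes of few UMIs, whose ratios vary more by counting error. The median of the Hox genes was −0.34 with no minimum above 1 UMI, that of the fast-firing list −0.40 in place of −0.21 with the mean over nuclei of CPM, and the mean over genes was −0.14 for the excitability list and 0.28 for the receptor list. Thinned to 1000 UMIs, the share of nuclei with a UMI was 11.7% for Gad1, 12.2% for Gad2, 7.88% for Slc32a1, 14.9% for Slc6a5, 17.4% for Glra1, 1.1% for Slc17a6 and 3.50% for Gad with Slc6a5 (draws taken as independent), since fewer UMIs are drawn. The cause of the other moves was not tested. At least 2000 UMIs left out 21 of the 232 nuclei and 0 of subcluster 24, and the doublet score left out 6 and 2. No paired analysis was possible because each genotype has 1 library and no test was made. For the same reason no replicate could be left out. Depth limits the HET nuclei most, where 498777 UMIs leave 6 of the 10 leading genes under 50 UMIs.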
